A study of Mus musculus with 2 samples.

Results

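Ifitm1, Ifitm2, Ifitm3 and Ifitm6, which encode interferon-induced transmembrane proteins, and Bst2, which encodes tetherin, were examined in single-cell transcriptomes of brain microglia. They were 5 of the 17476 genes listed for at least 1 of the 2 libraries. The members were chosen by name, with their measured levels, shares of cells and spread over cells in these same libraries already known, together with Ifit1 and Ifit3 as the genes to set them against. Levels, shares and spread are therefore given as descriptions, with no test. All 5 members are accounted for: Ifitm2, Ifitm3 and Bst2 had at least 20 unique molecular identifiers (UMIs, each marking 1 captured transcript) over the cells of both libraries, Ifitm1 had 9, and Ifitm6 had 0.

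The study asked how the loss of DJ-1, the product of the Parkinson's disease gene PARK7, changes microglia under systemic inflammation. KO LPS came from mice homozygous for a gene-trap insertion in Park7, and WT LPS from their wildtype littermates, both backcrossed to C57BL/6NCrl and 3 to 4 months old. Both groups received an intraperitoneal injection of lipopolysaccharide (LPS), a component of the bacterial outer membrane, at 4 µg per g body weight 24 h before collection, and no untreated library was used here. Living CD11b+CD45int cells were sorted and captured by Drop-seq, which encloses single cells in droplets and tags the 3′ ends of their transcripts with a barcode.

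Cells of 2 mice (1 female and 1 male) were pooled into the single library of each genotype. Genotype and library cannot be told apart, and no test between them was made. A barcode was taken as a cell with at least 500 UMIs and at least 100 genes, which left 320 cells with 381305 UMIs in KO LPS and 1427 cells with 1989011 UMIs in WT LPS. Median depth was 963.5 and 1065 UMIs per cell. No barcode was a cell in both libraries. The targeted gene, Park7, had 323 UMIs in WT LPS against only 1 in KO LPS, in the direction of the labels. All 10 microglia markers examined, among them P2ry12 and Tmem119, had UMIs in both libraries. Their summed level was higher in KO LPS (28714 UMIs per 1000000 UMIs of the library's cells, or CPM) than in WT LPS (13913 CPM). Choroid plexus markers moved with the genotype as well (2135 CPM against 15.1 CPM in WT LPS), and so did endothelial markers (102 CPM against 21.6 CPM). Their part in the results was not tested.

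Type I interferons bind a receptor on the cell surface, and the kinases and transcription factors behind it switch on a large set of antiviral genes. Ifitm proteins sit in the plasma membrane and in endosomes and hinder the fusion of enveloped viruses with the cell's membranes, while tetherin holds newly budded virus particles to the surface of the cell that made them. Ifit1 and Ifit3 act in the cytosol, where Ifit1 binds viral RNA and Ifit3 is one of its partners. In microglia and other macrophages this response also follows LPS, since Toll-like receptor signalling leads to the secretion of interferon-β.

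The Ifitm members lie side by side on chromosome 7 (GRCm38.p6, RefSeq): Ifitm2 at chr7:140954837-140959686, Ifitm1 at chr7:140967429-140969827, Ifitm3 at chr7:141009590-141010744 and Ifitm6 at chr7:141015812-141016892. Ifitm1 is on the plus strand and the other 3 are on the minus strand. Bst2 is on the minus strand at chr8:71534255-71537472. No other RefSeq gene overlaps any of them. The Ifitm genes are close relatives, and how reads shared between them were counted was not stated, so that the split of UMIs among them is uncertain.

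All 5 members had an entry in the RefSeq promoter table, which holds 250 bases before to 50 bases after a start of transcription. For Ifitm3, Ifitm6, Bst2 and Ifit1 that start was the 5′ end of the gene as given by its coordinates. For Ifitm1, Ifitm2 and Ifit3 it lay inside the gene, 647, 3725 and 410 bases from the 5′ end, and the bases before the outermost 5′ end of these 3 genes were not searched. GAAANNGAAA, the core of the interferon-stimulated response element, was searched on both strands and was found in 3.44% of the 32851 promoters. It was present in the promoters of the 3 members that had at least 20 UMIs, and was not found in the windows of Ifitm1 and Ifitm6. The stretches that hold it are shown because these are the letters the members share with Ifit1 and Ifit3. Each reads 5′ to 3′ on the gene's own strand, with the matches in capitals.
Ifitm2: accaacagGAAAAGGAAAttgctaga
Ifitm3: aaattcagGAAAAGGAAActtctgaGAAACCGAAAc
Bst2: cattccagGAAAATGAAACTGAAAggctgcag
Ifit1: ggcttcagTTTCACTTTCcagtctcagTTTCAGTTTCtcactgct
Ifit3: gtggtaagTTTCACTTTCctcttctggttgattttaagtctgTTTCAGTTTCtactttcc

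The Ifitm2 stretch is chr7:140955990-140956015, with its match 46 bases before the start used in the table (chr7:140955961), which is inside the gene. That of Ifitm3, chr7:141010715-141010750, crosses the start, and its matches begin at bases 3 and 20 of the transcript. The matches of Bst2 (chr8:71537579-71537610) begin 130 and 124 bases before the start and share letters. In Ifit1 (chr19:34640777-34640821) and Ifit3 (chr19:34583365-34583424), both matches read on the opposite strand. TTCNNNGAA, the core of the gamma-activated site, was found in 8.30% of the promoters and once each in those of Ifitm3, Ifitm6 and Bst2. A match is a description of the letters only. Of the 27 interferon response genes with a promoter in the table, 15 held the response element core, against 3.99% of all 27025 genes. No match was found in the promoters of Ifitm5, Ifitm7 and Ifitm10, the other genes of the family.

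Ifitm3 and Bst2 were abundant in WT LPS and nearly all member UMIs were theirs. Levels are given in CPM, with exact 95% Poisson intervals that cover counting error only. Each captured 3′ end gives 1 UMI whatever the length of the transcript, so that levels of different genes were compared without a correction for length. How well each gene is captured and counted was not assessed, and the split of UMIs among the Ifitm genes is uncertain, as stated above. Ifitm3, the most studied of the Ifitm restriction factors, had 738 UMIs and a level of 371 (345 to 399) in WT LPS, and Bst2 had 678 UMIs and a level of 341 (316 to 368). The ratio of Ifitm3 to Bst2 was 1.09 with an interval of 0.979 to 1.21, so these neighbours in the order did not differ beyond counting error. Ifitm2 had 72 UMIs and a level of 36.2 (28.3 to 45.6), and Ifitm3 exceeded it 10.3-fold (8.04 to 13.2).

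Ifitm1 came next with 9 UMIs in WT LPS, a level of 4.52 (2.07 to 8.59). Ifitm2 exceeded it 8-fold (3.99 to 18.2). Ifitm6 had 0 UMIs in WT LPS cells, which allows up to 1.51 CPM, and its only UMI was in a barcode with fewer than 500 UMIs. Among the 15014 genes with a UMI in WT LPS cells, Ifitm3 ranked 376th, Bst2 435th, Ifitm2 4901st and Ifitm1 10008th. Ifit1 (34.2; 68 UMIs) and Ifit3 (41.7; 83 UMIs) were at the level of Ifitm2, since the ratio of Ifitm2 to either had an interval that included 1 (0.749 to 1.50 for Ifit1 and 0.624 to 1.20 for Ifit3).

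**Figure D1:**
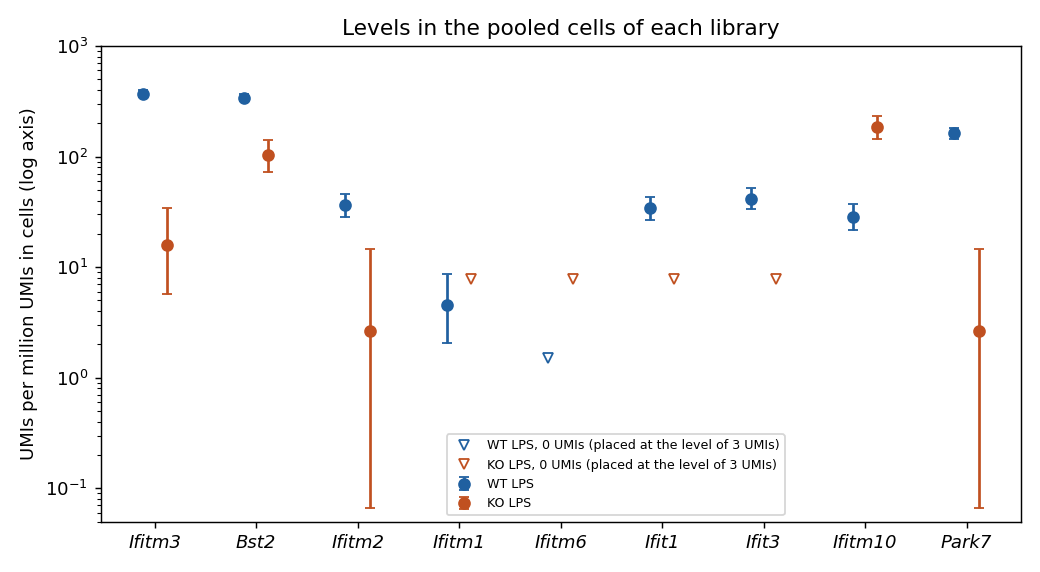
Levels of the members, Ifit1, Ifit3, Ifitm10 and Park7 in the cells of each library, in CPM on a log axis, with points for levels, bars for exact 95% Poisson intervals and open triangles where a library had 0 UMIs, placed at the level of 3 UMIs. Ifitm3 and Bst2 lie together in WT LPS (371 and 341) and apart in KO LPS (15.7 and 102).

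In KO LPS both genes were lower, and they no longer lay together. Ifitm3 had 6 UMIs and a level of 15.7 (5.77 to 34.2) in KO LPS, against 371 in WT LPS, a 23.6-fold difference whose interval of the ratio was 0.0155 to 0.0927. Bst2 had 39 UMIs and a level of 102 (72.7 to 140), against 341, a 3.33-fold difference with an interval of the ratio of 0.211 to 0.414. The intervals of the ratios of these genes did not overlap. Ifitm2 had 72 UMIs in WT LPS cells, and KO LPS cells held only 1, which gave a ratio of 0.0724 (0.00181 to 0.417). This 13.8-fold difference was 7.35-fold with at least 100 genes as the only limit for a cell. When every cell counted equally it was 21.4-fold. Ifitm1 had 0 UMIs in KO LPS, where 3 UMIs correspond to 7.87 CPM, and no fold is given because its level in WT LPS was below that. Ifitm6 had 0 UMIs in the cells of both libraries.

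Summed over the 5 members, the level was 753 CPM in WT LPS and 121 CPM in KO LPS, and the ratio of KO LPS to WT LPS was 0.160 (0.117 to 0.215). A gene was called lower or higher when its ratio was below 0.5 or above 2 with at least 20 UMIs over both libraries. All 3 members that could be called were lower. Among all 9085 such genes, 17.1% were lower and 12.9% were higher, and the median log2 ratio, with 0.5 UMIs added to each count, was 0.03. On this scale 0.715% of genes had a lower log2 ratio than Ifitm3 (-4.44), 1.90% a lower one than Ifitm2 (-3.21) and 5.77% a lower one than Bst2 (-1.72).

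The balance between Bst2 and Ifitm3 within a library does not depend on how libraries are scaled. In WT LPS cells, Bst2 made up 47.9% of the UMIs of the pair (exact Clopper-Pearson interval 45.3 to 50.5; 678 of 1416). In KO LPS cells it made up 86.7% (73.2 to 94.9; 39 of 45). Barcodes with more than 100 but fewer than 500 UMIs, just below the limit for a cell, gave 49.6% (43.0 to 56.1) in WT LPS and 90.9% (58.7 to 99.8; 10 of 11 UMIs) in KO LPS. In barcodes with 100 UMIs or fewer, KO LPS had 12 UMIs of Bst2 and 0 of Ifitm3, and WT LPS had 33 and 40. The intervals of KO LPS and WT LPS did not overlap in any of these 3 classes of barcodes.

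A single cell held 5 of the 6 Ifitm3 UMIs of KO LPS. It also held 7 of the 39 Bst2 UMIs, where no other KO LPS cell had more than 2. The cell had 760 UMIs in all, with 13 UMIs of microglia markers and 0 UMIs of the endothelial, border macrophage, monocyte and neutrophil lists. It was named after its values were seen. Without it, Ifitm3 had 1 UMI left in KO LPS and its ratio was 0.00708 instead of 0.0424, with a counting interval of 0.000179 to 0.0396. Bst2 had 32 UMIs and a ratio of 0.247 (0.167 to 0.352). When every cell counted equally, as the mean of each cell's own share of UMIs, the difference was 13.1-fold for Ifitm3 and 3.05-fold for Bst2.

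The same cell held 15 UMIs of 9 genes of the interferon response list, a level of 19737 CPM (11047 to 32553), among them 4 UMIs of Trim30a and 2 each of Mx2, Ifi204 and Slfn8. The other 319 cells of KO LPS had a level of 1403 (1287 to 1527) for this list, and WT LPS cells had 4244 (4154 to 4336). Only 16 of the 1427 WT LPS cells (1.12%) reached the list level of that cell. None of them reached its summed level of Ifitm3 and Bst2, which was 15789 CPM against at most 7163 in a WT LPS cell. The other KO LPS cell with Ifitm3 had 618 UMIs, 1 of Ifitm3 and 1 of Bst2, and the cell with the only Ifitm2 UMI had neither.

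Bst2 in KO LPS was spread more widely, over 28 cells, of which 22 had 1 UMI, 5 had 2 UMIs and 1 had 7 UMIs. Leaving out the cell described above, the 27 cells with Bst2 had a level of 1351 (1033 to 1735) for the interferon response list, and the 292 cells without it had 1410 (1286 to 1543). At 500 UMIs per cell the share of KO LPS cells with Bst2 (2.81%; 1.29 to 5.27) was not told apart from that of droplets of that size filled from barcodes with 100 UMIs or fewer, which stand for free RNA (2.97%), so that this split may not separate cells that express Bst2 from cells that do not.

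Levels were also taken within cells that carried a UMI of Xist or of a Y-linked gene. In KO LPS, 200 cells had Xist only, 12 had Y-linked UMIs only, 9 had both and 99 had neither, against 565, 195, 80 and 587 cells in WT LPS. These counts depend on how often each marker is detected and give no share of the sexes. Within the Xist cells the members kept their order, with 1 UMI of Ifitm3 and 28 of Bst2 in KO LPS and 330 and 281 UMIs in WT LPS, which gave ratios of 0.00942 (0.000238 to 0.0528) for Ifitm3 and 0.310 (0.202 to 0.457) for Bst2. The 12 KO LPS cells with Y-linked UMIs only had 0 UMIs of Ifitm3 and 1 of Bst2. In WT LPS the levels in Xist cells and in Y-linked cells were 408 (365 to 454) and 381 (315 to 456) for Ifitm3, and 347 (308 to 390) and 342 (279 to 413) for Bst2, with overlapping intervals.

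The members were read against the interferon response list, 37 genes such as Isg15, Mx1 and Oas1a, of which 36 were in the files and 32 had at least 20 UMIs. Of these, 27 were lower in KO LPS, 0 were higher and 5 were neither, where 17.1% of all 9085 genes were lower and 12.9% higher. The median log2 ratio was -2.36, or -1.96 when a count of 3 UMIs stood in for the 7 zeros in KO LPS. When the 3 members were ranked with these 32 genes from the lowest ratio upwards, Ifitm3 was 6th, Ifitm2 12th and Bst2 24th of 35. This order rests on the 0.5 UMIs added to counts of 0. With 3 UMIs in place of each 0 and nothing added elsewhere, an order chosen after seeing the data, Ifitm3 was 2nd after Ifi204, Ifitm2 6th and Bst2 21st. That order mixes bounds with measured ratios, and counts of 1 or 2 UMIs were not raised to 3. Ifitm2, with 1 UMI in KO LPS, thus stood before genes with 0. The places of genes with so few UMIs in KO LPS are not settled by either order. Zbp1, a sensor of unusual nucleic acid structures, was lowest in the first order and 8th in the second: its 143 UMIs were all from WT LPS, and it was at least 9.14-fold lower with 3 UMIs as the limit for a count of 0. Ifi27 was highest, with a ratio of 1.53 (0.985 to 2.32).

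**Figure D2:**
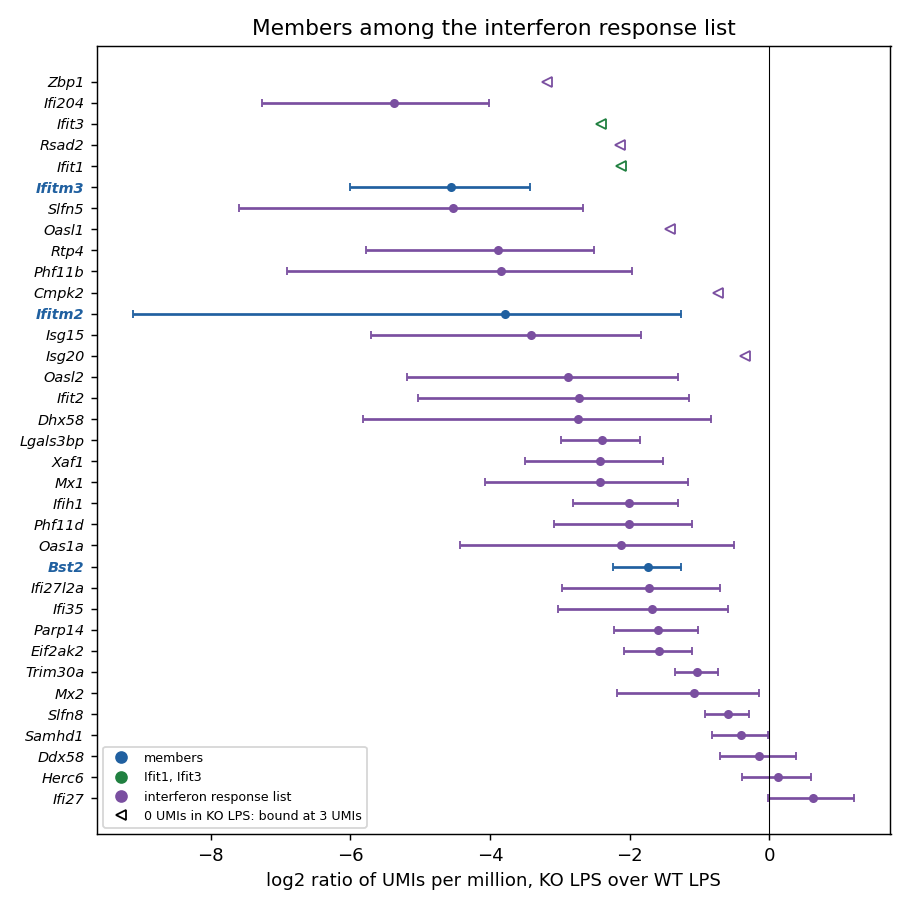
Log2 ratio of the level in KO LPS over WT LPS for the 3 members with at least 20 UMIs and the interferon response list, ordered by the ratio with 0.5 UMIs added, with exact 95% intervals that cover counting error only and triangles at the ratio that 3 UMIs would give for genes with 0 UMIs in KO LPS. Ifitm3 is 6th from the low end and Bst2 24th of 35.

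Of the receptors, kinases and transcription factors that carry the interferon signal, 16 of 17 had enough UMIs, and 4 were lower, 0 higher and 12 neither, with a median log2 ratio of -0.33. Over all 9085 genes that could be called, 17.1% were lower and 12.9% higher. Usp18, which dampens signalling at the interferon receptor, was lowest with 0.5 UMIs added and 3rd with 3 UMIs in place of its 0, as all 65 UMIs were from WT LPS (at least 4.15-fold lower in KO LPS), and Tyk2, a receptor kinase, was highest at a ratio of 1.88 (0.917 to 3.64). Irf7, the factor that amplifies interferon transcription, had 79 UMIs in WT LPS against 1 in KO LPS, a ratio of 0.0660 (0.00165 to 0.379). Ifnar1, a receptor chain, had a ratio of 0.724 (0.518 to 0.992) and was not called.

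Enzymes and membrane proteins that bind or modify Ifitm proteins were also counted. Of 9 such genes 8 had enough UMIs, and 0 were lower, 0 higher and 8 neither, with a median log2 ratio of -0.08. The shares over all genes were 17.1% lower and 12.9% higher. Vcp, an ATPase that extracts proteins from membranes, was lowest at a ratio of 0.549 (0.408 to 0.725), and Fyn, a kinase that phosphorylates Ifitm3, was highest at 1.92 (0.683 to 4.77). Within the family itself, Ifitm10 went the other way: it had 71 UMIs and a level of 186 CPM (145 to 235) in KO LPS, against 57 UMIs and 28.7 CPM (21.7 to 37.1) in WT LPS. Its ratio was 6.50 (4.52 to 9.38). Ifitm10 in KO LPS barcodes of 100 UMIs or fewer was at 221 CPM (161 to 297), an interval that includes its level in cells. At 500 UMIs it was in 7.5% of KO LPS cells and in 10.5% of droplets filled from those barcodes, which is read as background. Ifitm7 had 0 and 6 UMIs, and Ifitm5, a gene of bone-forming cells, was not in the files.

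In WT LPS, Ifitm3 had a UMI in 426 of 1427 cells, or 29.9% (27.5 to 32.3), and Bst2 in 441 cells, or 30.9% (28.5 to 33.4). Ifitm2 had a UMI in 65 cells (4.56%; 3.53 to 5.77), Ifit1 in 48 (3.36%) and Ifit3 in 50 (3.50%). These shares rose with depth. Of the 356 cells with the fewest UMIs (503 to 740 UMIs), 12.9% had Ifitm3 and 14.9% had Bst2. Of the 357 cells with the most (1633 UMIs and above), 53.8% and 52.7% did. The levels of Ifitm3 were 245 CPM (184 to 320) and 405 CPM (366 to 447) in these sets of cells, and those of Bst2 were 272 (208 to 351) and 358 (322 to 398), whose intervals overlap.

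Every cell was therefore thinned to 500 UMIs, and the share was set beside that of droplets of 500 UMIs filled from the barcodes with 100 UMIs or fewer, which stand for free RNA. At this depth 26.2% (23.9 to 28.6) of WT LPS cells had a UMI of a member, against 11.6% of such droplets. Ifitm3 was in 14.0% (12.3 to 15.9) of cells and 6.14% of droplets, and Bst2 in 13.7% (11.9 to 15.6) of cells and 5.09% of droplets. Both were above the background in WT LPS. Ifitm2 was in 1.75% (1.14 to 2.58) of cells and 0.789% of droplets, but its background rests on 5 UMIs, and the ratio of its level in those barcodes to that in cells, 0.437, had an interval that includes 1 (0.138 to 1.07).

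Ifit1 was in 1.54% (0.969 to 2.32) of thinned WT LPS cells and Ifit3 in 1.26% (0.749 to 1.99), against 2.04% of droplets for either gene. These shares alone cannot be told apart from background. On the CPM scale, barcodes with 100 UMIs or fewer held 0.341 (0.242 to 0.469) of the level of Ifitm3 in cells and 0.307 (0.209 to 0.435) of that of Bst2. For Ifit1 the same ratio was 1.20 (0.610 to 2.20), and for Ifit3 it was 0.987 (0.504 to 1.78).

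In KO LPS, 3.13% (1.51 to 5.67) of thinned cells had a UMI of a member and 2.97% of droplets did. Bst2 made up nearly all of this, at 2.81% (1.29 to 5.27) of cells and 2.97% of droplets. These shares come from 1 random draw, and the expectation over draws was 3.96% for any member and 3.84% for Bst2, within the intervals of the draw. The share of Bst2 was not told apart from background at this depth. Its level in cells was 102 (72.7 to 140) against 60.4 (31.2 to 105) in barcodes with 100 UMIs or fewer, which is a ratio of 0.590 (0.281 to 1.15) that includes 1. Ifitm3 had 0 UMIs among the 198723 UMIs of those KO LPS barcodes, which allows up to 18.6 CPM at the upper end of the exact interval, above its 15.7 CPM in cells. The ratio of its level in those barcodes to that in cells was 0, with an interval up to 1.63 that includes 1. At this depth its pooled level in KO LPS cells cannot be told apart from background either. This holds for the pooled level only, since 5 of its 6 UMIs were in 1 cell, at 6579 CPM of that cell's UMIs.

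**Figure D3:**
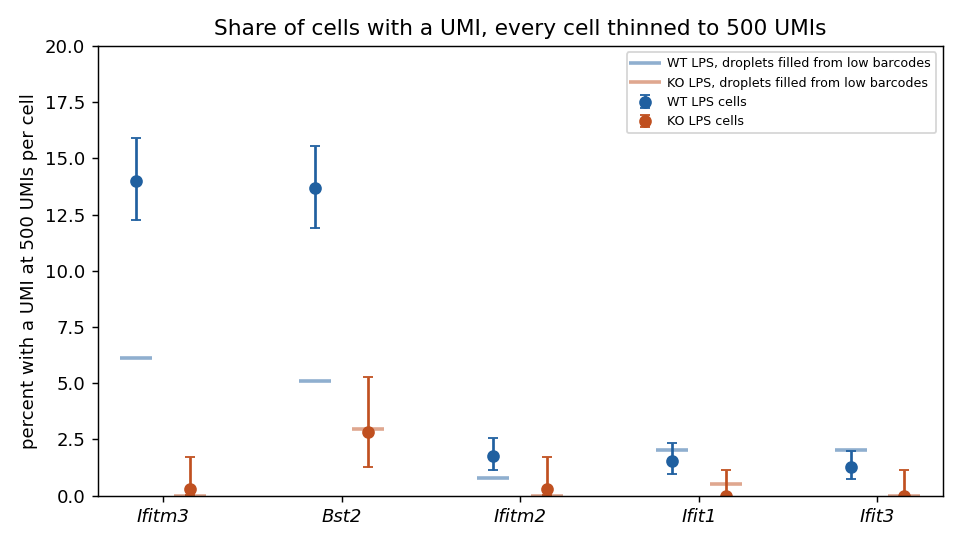
Percent of cells with a UMI of each gene after every cell was thinned to 500 UMIs, with exact 95% Clopper-Pearson intervals, beside horizontal marks for droplets of 500 UMIs filled from barcodes with 100 UMIs or fewer. Ifitm3 and Bst2 in WT LPS stand above their marks (14.0% over 6.14% and 13.7% over 5.09%), and Ifit1 and Ifit3 do not.

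The UMIs of Ifitm3 and Bst2 in WT LPS were spread over many cells with few UMIs each. Of the 426 cells with Ifitm3, 261 had 1 UMI, 91 had 2 UMIs, 42 had 3 UMIs, 11 had 4 UMIs and 21 had 5 UMIs or more, with a highest value of 11. Of the 441 cells with Bst2, 298 had 1 UMI, 86 had 2 UMIs, 36 had 3 UMIs, 11 had 4 UMIs and 10 had 5 UMIs or more, up to 10. The 3 cells with most UMIs of the gene held 3.39% of the UMIs of Ifitm3 and 3.10% of those of Bst2. They held 14.7% of the UMIs of Ifit1 and 24.1% of those of Ifit3, whose highest value in a cell was 10 although it had 83 UMIs in all.

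The spread was also given as the variance over the mean at 500 UMIs per cell, which is 1 for transcripts scattered at random and rises with the level of an unevenly spread gene. It was 1.19 for Ifitm3, 1.12 for Bst2 and 1.05 for Ifitm2, against 1.13 for Ifit1, 1.31 for Ifit3 and a median of 1.06 over the 6090 genes with at least 50 UMIs. The order of Ifit1 and Ifitm3 turned with depth, since at 1000 UMIs per cell the values were 1.44 and 1.39. That of Ifit3 and Ifitm3 turned without the 3 cells that had most UMIs of the gene, at 1.17 and 1.19. The excess squared coefficient of variation (CV) subtracts the scatter of random sampling and is scaled by the squared mean. It was 1.13 for Ifitm3, 0.770 for Bst2, 3.28 for Ifitm2, 8.28 for Ifit1 and 16.9 for Ifit3.

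This measure is higher for scarce genes in general, so each gene was set beside genes with 0.5 to 2 times its UMIs. The median of those was 0.615 for Ifitm3, of which 83.2% were lower than Ifitm3, and 0.639 for Bst2, of which 61.5% were lower. For Ifitm2 the median was 1.88 and 70.1% were lower. For Ifit1 it was 1.94 and 94.3% were lower, and for Ifit3 1.82 and 99.0% were lower. Ranked with the interferon response genes that had at least 50 UMIs, from the most uneven down, Ifit3 was 3rd, Ifit1 5th, Ifitm2 12th, Ifitm3 23rd and Bst2 27th of 32. Rsad2, which encodes the antiviral enzyme viperin, was the most uneven at 60.4, and Ifi35 the least at 0.101.

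**Figure D4:**
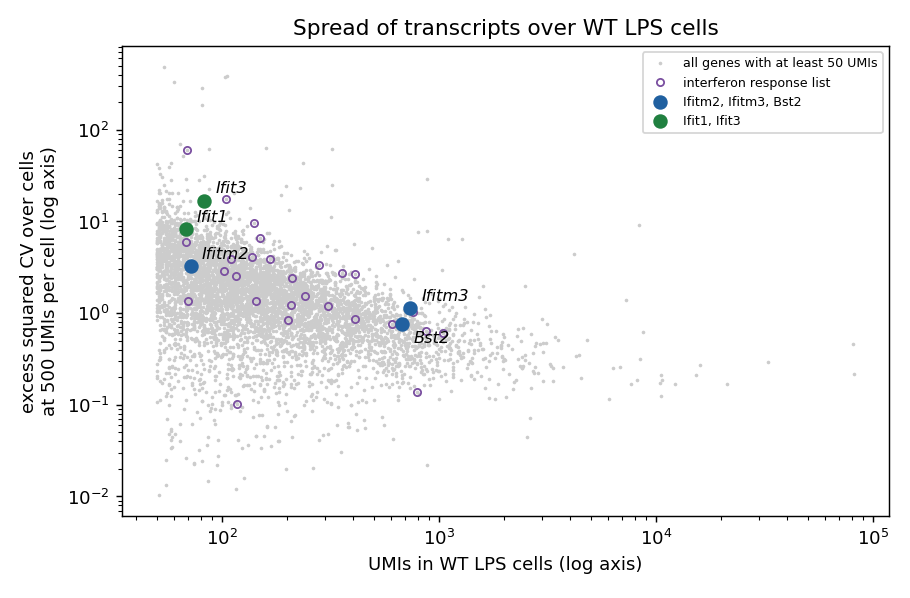
Excess squared CV over WT LPS cells at 500 UMIs per cell against the UMIs of a gene, both on log axes, for genes with at least 50 UMIs (448 genes at or below 0.01 are not drawn). Ifitm3 (1.13) and Bst2 (0.770) lie within the cloud of genes of their level, and Ifit1 (8.28) and Ifit3 (16.9) lie at its upper edge.

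Ifitm3 and Bst2 fell in the same WT LPS cells more often than independent placing gives. There were 191 cells with both, against 132 if the genes were placed independently, though deeper cells hold more of every gene. The co-occurrence ratio corrects for depth: it is the mean product of the UMIs of a pair of genes over the product of their means at 500 UMIs per cell, and is 1 for independence. It was 1.60 for Ifitm3 with Bst2. Over the 4561 other genes present in at least 5% of WT LPS cells, the median ratio with Ifitm3 was 0.986 and the middle 90% ran from 0.657 to 1.39, and with Bst2 it was 0.989 and from 0.636 to 1.40. Either gene ranked 54th for the other. These ratios are descriptions over cells that share a library.

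The 5 genes most alike to Ifitm3 in this sense were Phf11b (2.04), Zfp1 (1.99), Gm8444 (1.91), Ifi27l2a (1.87) and Isg15 (1.87). For Bst2 they were Isg15 (2.51), Gbp2 (2.46), Snrpd2 (2.11), Phf11b (2.01) and Gm10036 (1.96). Isg15, a ubiquitin-like modifier, and Phf11b were on both lists, and 3 of the 5 genes for Ifitm3 (Phf11b, Ifi27l2a and Isg15) and 2 of the 5 for Bst2 belong to the interferon response list, which makes up 0.504% of the 4561 genes ranked. The genes on these lists had between 80 and 166 UMIs in WT LPS, so that their ratios rest on few UMIs.

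Ifit1 and Ifit3 fell together far more strongly than Ifitm3 and Bst2 did, in 17 cells against 1.68 under independence and with a ratio of 19.3. Ifitm3 had ratios of 1.78 with Ifit1 and 1.97 with Ifit3, and Bst2 had 2.23 and 2.92. Ifitm2 had 0.383 with Ifit1, on 2 shared cells, and 0.944 with Ifit3. With the other 34 genes of the interferon response list summed, the ratio was 1.28 for Ifitm3, 1.29 for Bst2 and 0.974 for Ifitm2, against 3.04 for Ifit1 and 3.50 for Ifit3. The 81 cells with a UMI of Ifit1 or Ifit3 had an Ifitm3 level of 579 (468 to 709) against 353 (326 to 381) in the other 1346 cells, a ratio of 1.64 (1.31 to 2.04). Bst2 was at 530 (424 to 655) against 324 (298 to 351), a ratio of 1.64 (1.29 to 2.05). For Ifitm2 the ratio was 1.41 (0.583 to 2.94). These levels were not corrected for depth, and the 81 cells were deeper, with a median of 1319 UMIs against 1049.

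Shares of cells with Ifitm3 and Bst2 were also set against the number of interferon response transcripts in the cell. Among the 262 thinned WT LPS cells with 0 UMIs of those 34 genes, 9.16% (5.96 to 13.3) had Ifitm3 and 11.8% (8.18 to 16.4) had Bst2. Among the 238 cells with 4 UMIs or more, 19.7% (14.9 to 25.4) had Ifitm3 and 17.2% (12.7 to 22.6) had Bst2. The intervals did not overlap for Ifitm3 and overlapped for Bst2. In the cells with 0 list UMIs, the interval of Ifitm3 includes the 6.14% of droplets filled from free RNA, so that its share there is not told apart from background. That of Bst2 lies above its 5.09%. The droplets were not selected for 0 list UMIs, and the counting error of their shares is not included. Ifitm2 was in 2.29% (0.845 to 4.92) and 2.52% (0.931 to 5.41). Ifit1 was in 0.763% (0.0926 to 2.73) and 5.04% (2.63 to 8.64), the latter above its 2.04% of droplets. Ifit3 was in 0.382% (0.00966 to 2.11) and 3.78% (1.74 to 7.06), and both intervals include its 2.04% of droplets. At 500 UMIs a cell with 0 UMIs of the list can still express it.

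**Figure D5:**
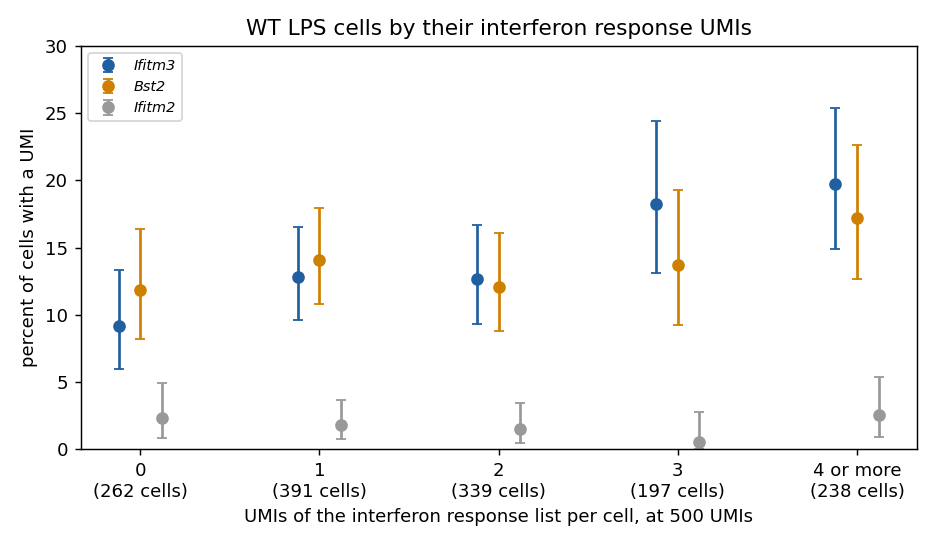
Percent of WT LPS cells with a UMI of Ifitm3, Bst2 or Ifitm2, by the number of UMIs of 34 other interferon response genes in the cell, every cell thinned to 500 UMIs, with exact 95% Clopper-Pearson intervals. Ifitm3 is at 9.16% with 0 list UMIs and at 19.7% with 4 or more, and Bst2 is at 11.8% and 17.2%.

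Over all UMIs, the list level was 5050 (4856 to 5249) in the 191 cells with both Ifitm3 and Bst2 and 3712 (3578 to 3851) in the 751 cells with neither. Cells with Ifitm3 only had 4433 (4216 to 4659), and cells with Bst2 only had 4068 (3861 to 4283). The 21 cells with 5 or more Ifitm3 UMIs had 4205 (3838 to 4598), which did not exceed the level of all WT LPS cells, 4244. These levels were not corrected for depth, which differed between the sets, with a median of 1861 UMIs in cells with both genes, 1257 with Ifitm3 only, 1270.5 with Bst2 only and 870.0 with neither. The 21 cells with 5 or more Ifitm3 UMIs were the deepest set, with a median of 3047 UMIs.

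Markers of other cells the sort could hold were examined beside the members. Of the 9 neutrophil markers in the files, Csf3r was the only one with UMIs in KO LPS, while 6 had UMIs in WT LPS. S100a8 and S100a9 were at 0 in KO LPS. Csf3r, which microglia express too, was left out of the counts that follow. The 65 WT LPS cells with Ifitm2 held 58 neutrophil marker UMIs and the 1362 cells without it held 83, which is 327 CPM against 45.8 CPM. A single cell of 917 UMIs held 52 of the 58 and also had Ifitm3. Without it the level was 34.0 CPM, below that of cells lacking Ifitm2. The share of cells with a neutrophil marker UMI was 10.8% with Ifitm2 and 4.48% without, where the median depth was 1993 and 1038.5 UMIs. In the same way, 1 of the 8 cells with Ifitm1 held 9 of their 10 neutrophil marker UMIs. Cells with Bst2 had 32.4 CPM against 100.4 CPM in cells without it, or 54.3 CPM without the cell that held 52. Leaving out all cells with a neutrophil or monocyte marker UMI, Csf3r included, the difference between libraries was 12.5-fold for Ifitm3 and 3.42-fold for Bst2. With Csf3r not counted as a marker, a choice made after seeing the data, it was 23.1-fold and 3.33-fold. Endothelial markers were at 17.5 CPM in WT LPS cells with Ifitm3 and 24.8 CPM in those without, and the 2 KO LPS cells with Ifitm3 had 0 UMIs of them.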

How the data were processed

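Drop-seq libraries of sorted CD11b+CD45int microglia were deposited by the authors as 2 matrices of raw counts (UMIs per gene and cell barcode), each with 9999 barcodes, not filtered to cells and not normalised. The submitters' processing notes name bcl2fastq 2.0 and STAR, and list mm9 and mm10 without a role. The counting program, its annotation and its use of strand were not given in the sources used here. Missing values, which stood in place of a count for every barcode of a library, were taken as 0, which held for Ifitm1, Ifitm6 and Ifit3 in KO LPS. All barcodes summed to 3063795 UMIs for WT LPS and 684738 for KO LPS. The study's own calling of cells and its MAST test were replaced, since cells of 1 library are not replicates.

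Calculations used scipy 1.17.1 with numpy 2.4.6 and pandas 2.3.3 under Python 3.11.15. UMIs were summed over cells and given per 1000000 (CPM). Intervals were exact 95% intervals (Poisson for levels, conditional binomial for ratios, Clopper-Pearson for shares) that cover counting error only. For genes at 0, a floor of 3 UMIs in the library gave the bound of a fold, and the upper end of the exact interval is named where it was used instead. Cells were thinned without replacement to 500 UMIs with 1 random draw. Variance over mean, excess squared CV and co-occurrence were computed for that depth from factorial moments, without a draw. Doublets were left in, and leaving out the 5% of cells with most UMIs was an alternative. Calculations were tested on simulated data.

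The members and gene lists were chosen with earlier results of these data known. Genes named were the members, Ifit1, Ifit3, Park7, the other Ifitm genes, the highest and lowest ratio of each list, genes with a role in the text, and the 5 genes most alike to each member with at least 100 UMIs. Positions and promoters are RefSeq (GRCm38.p6), matched by symbol. Some genes are not reported here.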

Additional observations from a re-analysis of the deposited data

How the results depend on the processing

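No paired analysis was possible because there was 1 library per genotype, and for the same reason no replicate could be left out. Of 140 alternative values, 110 stayed within the counting interval of the value reported, 30 did not, and 0 changed direction. The shares of cells among them have no direction that could change. Log2 ratios with 0 UMIs in KO LPS could not be computed and are not among the 140. For variance over mean and co-occurrence, this interval was scaled from the Poisson interval of the cells with 2 or more UMIs of the gene, or with both genes. The log2 ratio of the summed members, with no count added, was -2.64 and lay between -2.97 and -2.39 under all alternatives except the cells without the KO LPS cell that held 5 Ifitm3 UMIs (-3.07, chosen after seeing the data) and the cells with a Y-linked and no Xist UMI (-3.46, where KO LPS had 12 cells and 1 member UMI). Scaling by the median ratio of genes moved all ratios by less than 0.001 on the log2 scale. With at least 1000 UMIs per cell, Ifitm3 had 0 UMIs in the 148 KO LPS cells and was at least 34.0-fold lower. Leaving out every cell with a neutrophil or monocyte marker UMI, Csf3r included, gave a 12.5-fold difference for Ifitm3, and the same without Csf3r, chosen after seeing the data, gave 23.1-fold. Leaving out cells with a choroid plexus marker UMI, also chosen after seeing the data, gave 20.3-fold. The causes were not tested.

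Depth set the shares and the spread. The share of WT LPS cells with a member UMI was 47.5% at 1000 UMIs per cell and 48.8% without thinning. Variance over mean was 1.39 for Ifitm3 and 1.22 for Bst2 at 1000 UMIs, and 2.14 and 1.70 without thinning. For Bst2 it was 1.10 without cells that had a neutrophil or monocyte marker UMI. Co-occurrence of Ifitm3 and Bst2 was 2.53 without thinning, and between 1.43 and 1.64 under the other alternatives. The share from 1 random draw, 26.2%, had an expectation over draws of 26.8%. In KO LPS, 381305 UMIs limit what can be seen of a gene to about 7.87 CPM.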

Other observations

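Barcodes that were not taken as cells held members too. In WT LPS, the 4302 barcodes with more than 100 but fewer than 500 UMIs had an Ifitm3 level of 157 CPM (130 to 188) and a Bst2 level of 154 CPM (127 to 185), both between those of barcodes with 100 UMIs or fewer (127 and 105) and those of cells. In KO LPS, the 443 barcodes of that class had 1 UMI of Ifitm3, 1 of Ifitm2 and 10 of Bst2, a Bst2 level of 95.5 CPM (45.8 to 176).

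Near the other end of the co-occurrence order, 3 genes had the lowest ratios with Bst2: Fam65b (0.300), Meg3 (0.325) and Ccdc82 (0.326). With Ifitm3 they were 3110082I17Rik (0.351), Rfwd2 (0.367) and Slc25a28 (0.378). These genes had 82 to 162 UMIs and were chosen after their values were seen.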
